A study of Danio rerio with 18 samples.

Results

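Mitochondrial fatty acid oxidation genes were followed in the digestive organs of zebrafish larvae after a meal. The set comprised 9 genes of the carnitine shuttle and of the beta-oxidation spiral: cpt1a, cpt1b, cpt2, slc25a20, acadvl, acadm, hadhaa, hadhb and hadh. They were chosen by symbol with earlier results of these data known, so their counts against all genes carry no independent support. Each was read from the transcript of highest average level, out of 21227 symbols in the authors' deposited table. All 9 were present, and all 9 were among the 12828 symbols with an average log2 CPM (counts scaled to library size) of at least 0, which are called genes below.

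The larvae were wild type of the AB strain, aged 6.5 days post fertilization. A high-fat cohort ate a 5% egg yolk emulsion and a low-fat cohort ate 10% egg white, and each cohort had its own unfed larvae. Fed larvae were taken 1 h or 4 h after the meal, so the 18 samples formed 6 groups of 3. Intestine, liver and pancreas of 10 larvae made up a sample, and the triplicates came from separate crosses. The meal also differed in more than fat, since yolk and egg white are different foods. Each meal was given to its own cohort, so a difference between meals cannot be told apart from one between cohorts. The titles of the unfed samples state no sampling time, and the part of elapsed time in the values was not tested.

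Long-chain fatty acids cannot cross the inner mitochondrial membrane as coenzyme A esters. Carnitine palmitoyltransferase 1 on the outer membrane moves the acyl chain onto carnitine, a carrier takes the acylcarnitine across, and carnitine palmitoyltransferase 2 restores the coenzyme A ester inside. The beta-oxidation spiral then shortens the chain by repeated dehydrogenation, hydration, a further dehydrogenation and thiolysis, with the trifunctional protein performing the last steps for long chains. In liver and intestine these genes are known targets of PPAR-alpha, a nuclear receptor for fatty acids.

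Fold changes are log2 values of fed against unfed larvae of the same cohort, from the authors' deposited table, and a call means an adjusted p under 0.05 there. They are named by time and meal below, as in the 4 h high-fat comparison. That table has 1 average level per transcript and 0 columns for single samples, so per-sample values, their spread and library depth were not analysed here. Intervals were rebuilt from the authors' p-values. Implied standard errors were summarized where the log2 CPM was at least 3, the fold change exceeded 0.5 in size and p was under 0.6. They had a median of about 0.36 in the 4 comparisons, or a 95% half-width of about 0.71. At least 94% of these errors lay within 3% of the median. The error was thus nearly the same for most such transcripts and does not carry each gene's own spread between samples. In the 4 h high-fat comparison it was 0.39 for cpt1b and 0.38 for hadhaa. In pooled organs, a change in the number of cells of a type and a change in RNA per cell cannot be told apart.

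In the 4 h high-fat comparison 3 of the 9 genes were higher than in unfed larvae and 0 were lower: cpt1b, hadhaa and hadhb. All 9 log2 fold changes were above 0, from 0.52 to 2.86, with a median of 0.86. Over all 12828 genes the median was 0.01, 0.741% were called higher and 0.616% lower, and of the 5998 genes whose log2 CPM reached 3, as all 9 did, 0.934% were called higher. Of the 9 values 8 exceeded the 95th percentile of all genes, which was 0.62. The exception was cpt1a.

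**Figure D1:**
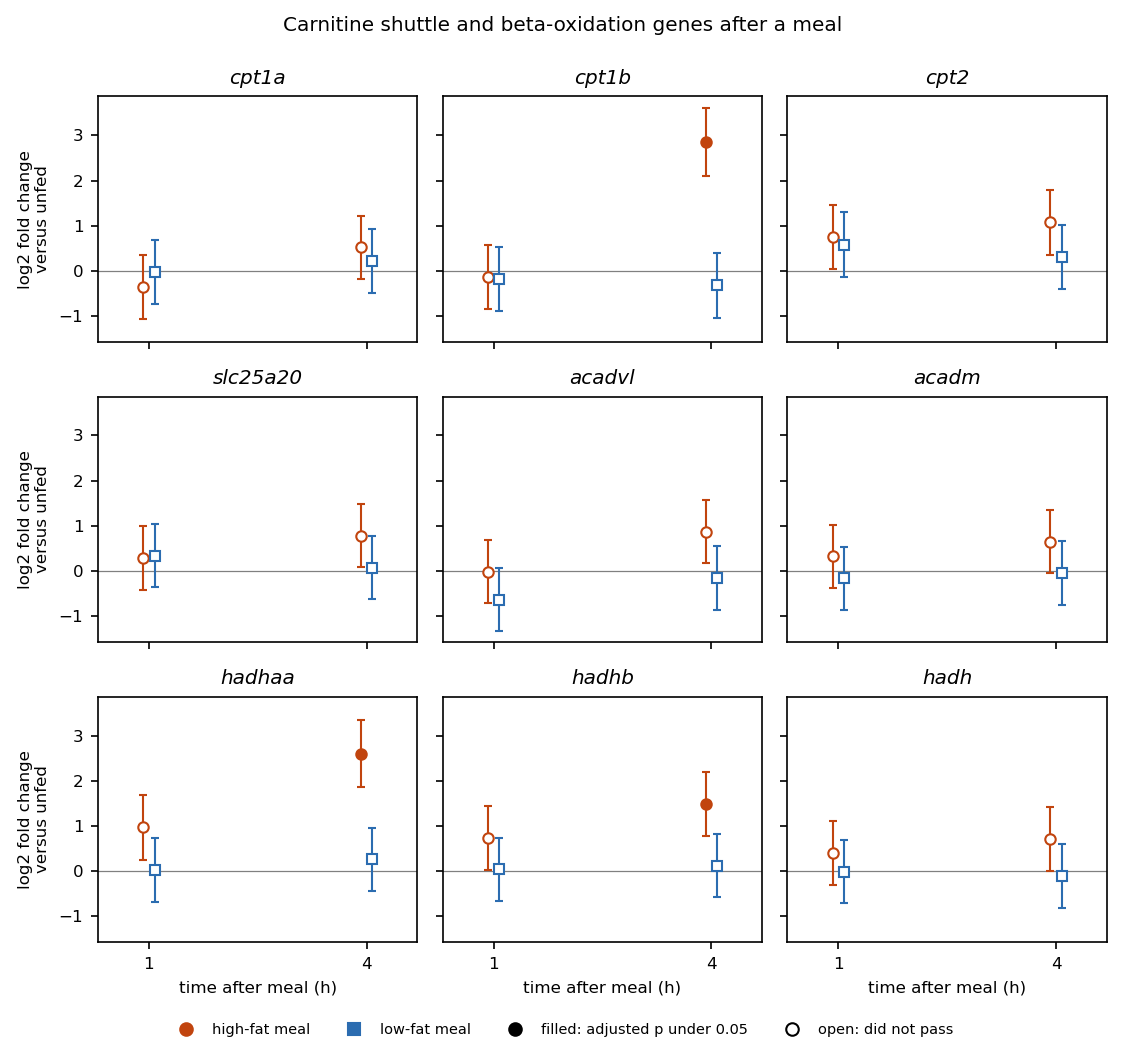
Log2 fold change of each of the 9 genes against unfed larvae of the same cohort (vertical axis) in the high-fat (circles) and low-fat (squares) comparisons at 1 h and 4 h. Bars are 95% intervals rebuilt from the authors' p-values, and filled symbols passed an adjusted p under 0.05. The 3 filled symbols are cpt1b (2.86), hadhaa (2.60) and hadhb (1.48) in the 4 h high-fat comparison.

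The first step is served by paralogs with different values. cpt1b, a carnitine palmitoyltransferase 1 gene whose mammalian counterpart is the form of muscle and heart, gained 2.86 on the log2 scale in the 4 h high-fat comparison of the authors' deposited table (adjusted p = 3.1e-10). This is a 7.26-fold change with a 95% interval of 4.29 to 12.3. The value was the 20th highest of all 12828 genes. Its other log2 fold changes in the authors' deposited table were -0.14 in the 1 h high-fat comparison, -0.19 in the 1 h low-fat comparison and -0.33 in the 4 h low-fat comparison (adjusted p = 1 in each). The response of cpt1b was therefore seen in 1 of 4 comparisons. Its average level was 10.2 CPM, and the transcript, ENSDART00000083421, was placed on chromosome 18 from 7811522 to 7832169 of build Zv9 in the authors' deposited table. Starts were taken to count from 0, since 4 rows there have a start of 0.

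cpt1a, whose mammalian counterpart is the liver form of the same enzyme, gave 0.52 in the 4 h high-fat comparison in the authors' deposited table and did not pass (adjusted p = 0.98). RefSeq lists this gene as cpt1aa, and any further gene of the liver form was not examined here. The 95% interval of this log2 fold change ran from -0.19 to 1.22 and that of cpt1b from 2.10 to 3.62, so the intervals did not overlap. The difference between the paralogs was not tested. Elsewhere cpt1a had -0.37 in the 1 h high-fat comparison of the authors' deposited table, and after the low-fat meal it had -0.03 at 1 h and 0.21 at 4 h, none of which passed (adjusted p from 0.96 to 1). Its average level was 11.7 CPM.

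Alternative transcripts gave the same picture. The authors' deposited table held 2 transcripts of cpt1b, with 2.86 and 2.76 in the 4 h high-fat comparison, both called. It held 3 transcripts of cpt1a, with 0.35 to 0.52 in that comparison and 0 called. The lowest value of a cpt1a transcript was -1.08 in the 1 h high-fat comparison in the authors' deposited table (adjusted p = 0.28), from the weakest transcript, at a log2 CPM of -0.67. Transcripts of a gene may share reads, so they are not separate measurements. Over the 9 genes there were 18 transcripts, and 6 genes had more than 1.

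Neither the carrier nor the second transferase passed in any comparison. For cpt2, the inner membrane transferase, the authors' deposited table gave 1.07 in the 4 h high-fat comparison (adjusted p = 0.16) and 0.75 at 1 h (adjusted p = 0.39). After the low-fat meal cpt2 had 0.57 at 1 h and 0.30 at 4 h in the authors' deposited table (adjusted p-values of 0.66 and 1). All 4 values of cpt2 were above 0. slc25a20, the carnitine-acylcarnitine carrier of the inner membrane, had 0.77 in the 4 h high-fat comparison (adjusted p = 0.54 in the authors' deposited table) and between 0.06 and 0.33 in the other 3 comparisons. The positions of cpt2 and slc25a20 in the table are those of long loci shared with 7 and 9 other symbols, so they do not locate these genes and are not given.

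Transcripts of an alpha and of the beta subunit gene of the trifunctional protein, the complex of the inner membrane that completes the spiral for long chains, were called higher, and those of the other alpha subunit gene were not. hadhaa, for the alpha subunit with hydratase and dehydrogenase activity, gained 2.60 on the log2 scale in the 4 h high-fat comparison of the authors' deposited table (adjusted p = 1.1e-08). The corresponding change was 6.06-fold, with a 95% interval of 3.62 to 10.1, and the value ranked 22nd of 12828. hadhb, for the beta subunit with thiolase activity, had a rise of 1.48 there according to the authors' deposited table (adjusted p = 0.0092), which is 2.79-fold with an interval of 1.70 to 4.57.

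The subunits had, in the 1 h high-fat comparison, 0.96 for hadhaa (adjusted p = 0.17) and 0.73 for hadhb (adjusted p = 0.41) in the authors' deposited table, and neither passed. After the low-fat meal the values of both lay near 0: in the authors' deposited table hadhaa had 0.02 at 1 h and 0.25 at 4 h, and hadhb had 0.03 and 0.11. The average level of hadhaa was 4.0 and that of hadhb 4.92 on the log2 CPM scale.

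hadhaa and hadhb are neighbours: in the RefSeq annotation of assembly GRCz12tu they lie next to each other on chromosome 20 with no protein-coding gene between them. The authors' deposited table placed hadhaa (ENSDART00000079734) on chromosome 20 of Zv9 from 48621717 to 48655085 and hadhb (ENSDART00000079738) on an unplaced scaffold from 2469 to 21134. The outer neighbours of the pair in GRCz12tu, tfap2d and gareml, had low average log2 CPM of -4.36 and -1.34 in the authors' deposited table. Of their values gareml had 1 call, a log2 fold change of -1.66 in the 1 h high-fat comparison of the authors' deposited table (adjusted p = 0.0498), and tfap2d had 0. Another alpha subunit gene, hadhab, named here as the paralog of hadhaa, had 0.80 in the 4 h high-fat comparison in the authors' deposited table and did not pass (adjusted p = 0.49). It had an average level of 42.3 CPM, against 16.0 CPM for hadhaa, neither scaled to transcript length. Its values in the other 3 comparisons lay between 0.14 and 0.42. Between hadhaa and hadhab reads may be split, and the sources used here state no counting rule.

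The acyl-CoA dehydrogenases of the first step of the spiral did not pass. acadvl, for very long chains, had 0.86 in the 4 h high-fat comparison in the authors' deposited table (adjusted p = 0.38), after -0.02 at 1 h. In the low-fat cohort its values in the authors' deposited table were -0.64 at 1 h (adjusted p = 0.53) and -0.16 at 4 h, so that acadvl was the lowest of the 9 at 1 h. acadm, for medium chains, had 0.65 and 0.32 in the 4 h and 1 h high-fat comparisons of the authors' deposited table (adjusted p-values of 0.76 and 1), and -0.17 and -0.05 after the low-fat meal. The dehydrogenase of short and medium hydroxyacyl chains, hadh, had 0.71 and 0.39 in the 4 h and 1 h high-fat comparisons of the authors' deposited table (adjusted p-values of 0.66 and 0.92), and -0.02 and -0.12 after the low-fat meal. For acadvl, hadh, cpt2 and slc25a20 the single-gene 95% interval in the 4 h high-fat comparison lay above 0, but none of the 4 passed the adjustment.

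Earlier, in the 1 h high-fat comparison, 0 of the 9 genes were called by the authors' edgeR test, and 3 (cpt2, hadhaa and hadhb) had an unadjusted p under 0.05, a threshold that 14.5% of all genes passed in that comparison. The median was 0.32, with 6 of 9 above 0, against a median of -0.01 over all genes, of which 1.96% were called higher and 1.77% lower. For the low-fat meal at 1 h 0 of 9 were called by edgeR and 0 had an unadjusted p under 0.05, with a median of -0.02 and 4 of 9 above 0. All genes then had a median of 0.02, with 2.72% called higher and 1.34% lower. For the low-fat meal at 4 h 0 of 9 were called by edgeR and 0 had an unadjusted p under 0.05, with values between -0.33 and 0.30 and a median of 0.06. The background in that comparison was a median of 0.02, with 0.437% called higher and 0.0078% lower.

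**Figure D2:**
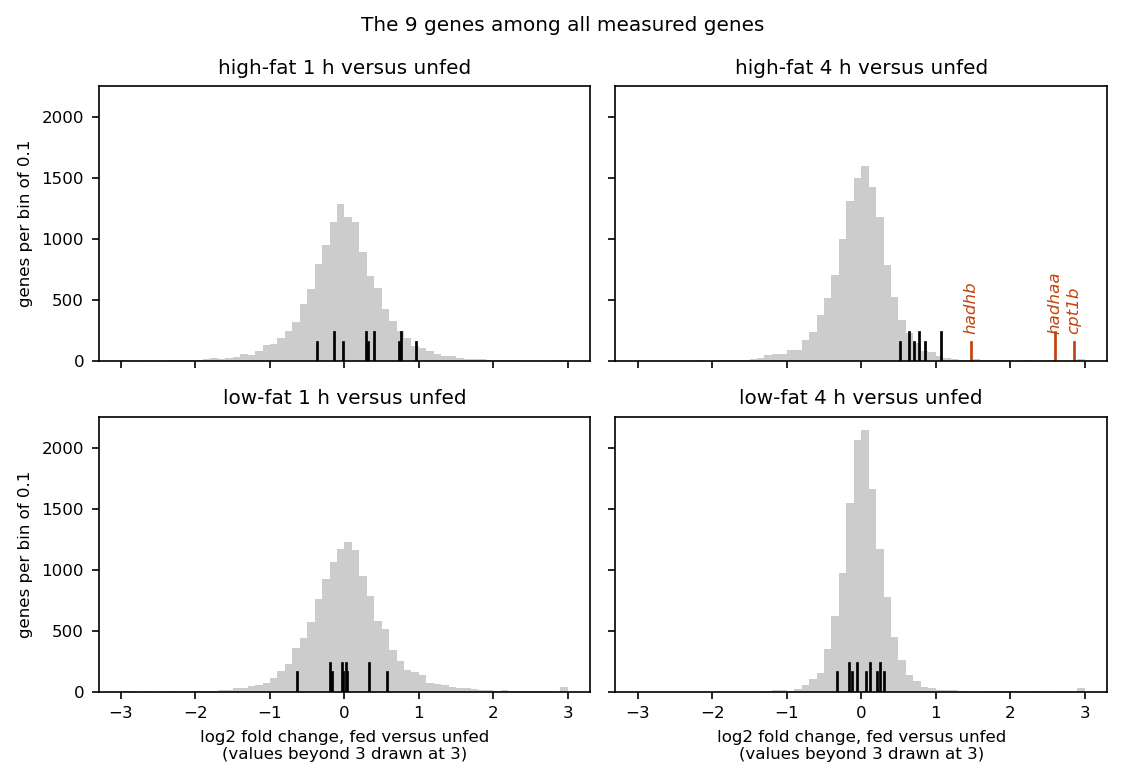
Number of genes in each bin of the log2 fold change against unfed larvae (grey, 12828 genes) in the 4 comparisons, with the 9 genes as short vertical lines of 2 lengths for legibility. Red lines passed an adjusted p under 0.05, and genes beyond 3 in size are drawn at 3. All 9 lie above 0 in the 4 h high-fat comparison, from 0.52 to 2.86, whereas in the 4 h low-fat comparison they lie between -0.33 and 0.30.

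The meals were compared by the difference of their log2 fold changes, using the implied standard errors in a normal approximation, with p-values adjusted over the 12828 genes by the Benjamini-Hochberg method. Such a test rests on errors that were nearly the same for most transcripts, so its p-values leave out each gene's own spread. At 4 h the rise after the high-fat meal exceeded the change after the low-fat meal for 2 of the 9 genes, where 0.218% of all genes passed in this direction and 0.249% in the other. For cpt1b the difference was 3.19 (95% interval 2.15 to 4.23, adjusted p = 2.3e-06). For hadhaa it was 2.35 (1.32 to 3.38, adjusted p = 0.0028).

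hadhb had a difference between meals of 1.37 at 4 h, with an interval of 0.36 to 2.37, and did not pass (adjusted p = 0.53). Its call after the high-fat meal alone is thus not shown to depend on the meal. The differences of the other 6 genes at 4 h lay between 0.31 for cpt1a and 1.03 for acadvl, with adjusted p = 1.0 for each. For cpt1a the interval ran from -0.69 to 1.31. At 1 h 0 of 9 differences between meals passed and 0 had an unadjusted p under 0.05 in the normal test. They ranged from -0.34 for cpt1a to 0.94 for hadhaa, against a background of 0.179% of genes higher and 0.67% lower.

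**Figure D3:**
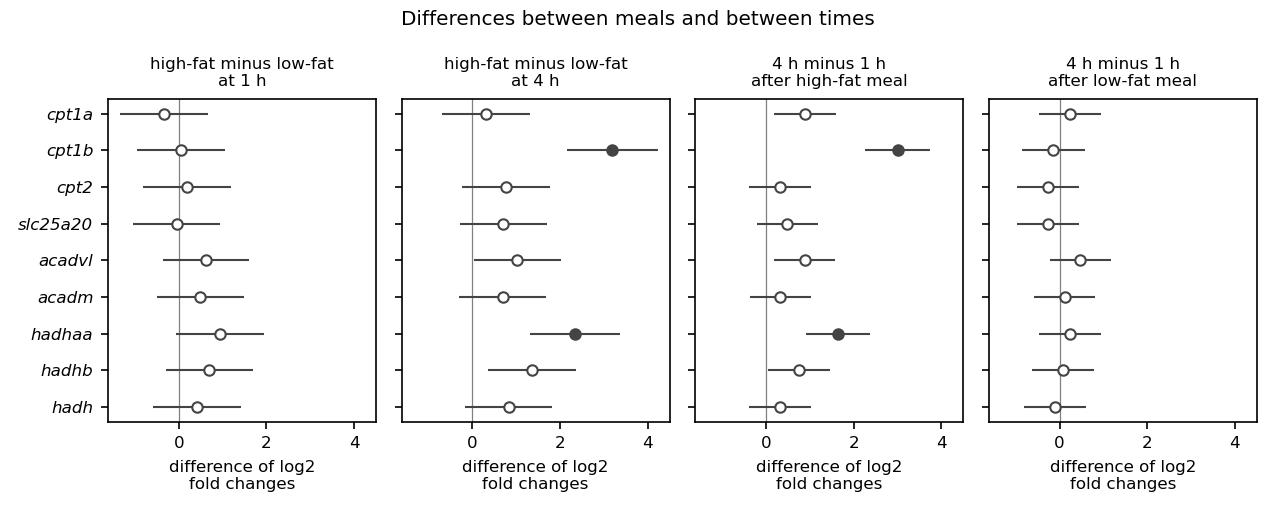
Differences of log2 fold changes for the 9 genes (horizontal axis), between the meals at 1 h and 4 h and between 4 h and 1 h after each meal. Lines are 95% intervals from the implied standard errors, and filled points passed an adjusted p under 0.05. cpt1b and hadhaa are filled for high-fat minus low-fat at 4 h (3.19 and 2.35) and for 4 h minus 1 h after the high-fat meal (3.0 and 1.64).

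Between the 1 h and 4 h high-fat groups cpt1b rose by 3.0 (95% interval 2.27 to 3.74, adjusted p = 4.5e-13) and hadhaa by 1.64 (0.91 to 2.37, adjusted p = 5.8e-04). The unfed larvae cancel in this difference. These 2 of 9 genes stood against 3.17% of all genes called higher and 3.21% lower by the same normal test. All 9 differences were above 0, from 0.32 for cpt2 and hadh to 3.0, and the 7 other genes did not pass. The values next in size were those of cpt1a (0.89), acadvl (0.88) and hadhb (0.75), with adjusted p of 0.14, 0.13 and 0.25. Between the 1 h and 4 h low-fat groups 0 of 9 differences passed and 0 had an unadjusted p under 0.05 in the normal test. They lay between -0.27 and 0.48, where 0.585% of all genes were called higher and 1.33% lower.

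The remaining enzymes of mitochondrial oxidation showed no call. Of 21 measured genes, which include acadl, the electron transfer flavoproteins, echs1 and acaa2, 0 were called in any of the 4 comparisons by the authors' edgeR test. The counts at an unadjusted p under 0.05 were 2 and 6 in the 1 h and 4 h high-fat comparisons, and 1 and 0 after the low-fat meal. Their median in the 4 h high-fat comparison was 0.36, with 14 of 21 above 0, against 0.86 for the 9 genes and 0.01 for all genes. It was -0.07 in the 4 h low-fat comparison, with 5 of 21 above 0. The list also holds genes of branched-chain amino acid and propionate breakdown: acad8, acadsb, hibch, mcee, mut, pcca and pccb. Its medians are therefore not those of fatty acid oxidation alone. In the 4 h high-fat comparison these genes lay between -0.51 (acad8) and 0.15 (mcee). The whole list then ran from -0.64 (acat1) to 1.22 (acad9), with 7 of 21 at or below 0. After acad9 the highest were decr1 (1.15), etfdh (0.87), acadl (0.86), acaa2 (0.81) and hadhab (0.80), none of which passed. The members without a call lay in the same region, between 0.52 (cpt1a) and 1.07 (cpt2). This list and the 9 genes were parted with earlier results of these data known, so the contrast between them carries no independent support.

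Among genes of fatty acid activation, carnitine supply and malonyl-CoA control, bbox1 rose after both meals. It codes for the last enzyme of carnitine synthesis, and the authors' deposited table gave 2.54 at 1 h and 1.83 in the 4 h high-fat comparison (adjusted p-values of 1.6e-08 and 2.8e-04). After the low-fat meal bbox1 had 2.26 at 1 h (adjusted p = 5.4e-07) and 0.77 at 4 h (adjusted p = 1) in the authors' deposited table. slc25a48, a mitochondrial carrier gene, fell by 2.33 in the 1 h high-fat comparison (adjusted p = 3.5e-07) and had -0.46 at 4 h in the authors' deposited table. After the low-fat meal slc25a48 had -1.14 at 1 h (adjusted p = 0.054) and -0.01 at 4 h (adjusted p = 1) in the authors' deposited table. Of 17 measured genes in this list 1 was higher and 1 lower in the 1 h high-fat comparison, 1 was higher at 4 h, and 1 was higher in the 1 h low-fat comparison. None of the 17 was called in the 4 h low-fat comparison, with 1 at an unadjusted p under 0.05 in the authors' edgeR test. The list median in the 4 h high-fat comparison was -0.03.

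Peroxisomal beta-oxidation, which shortens very long chains outside mitochondria, gave 0 calls among 16 genes in the 4 comparisons by the authors' edgeR test. Unadjusted p under 0.05 was reached by 2 of the 16 in the 1 h high-fat comparison and by 0 in the other 3 comparisons. The medians were 0.30 and 0.10 in the 1 h and 4 h high-fat comparisons, and 0.21 and 0.03 after the low-fat meal. Ketone body genes, which handle the acetyl-CoA that oxidation yields, had 1 of 9 measured genes called higher at 1 h after each meal and 0 at 4 h. That gene was slc16a6b, of the monocarboxylate transporter family. It had 2.57 and 1.38 at 1 h after the high-fat and low-fat meals in the authors' deposited table (adjusted p-values of 1.2e-08 and 0.0091). At 4 h slc16a6b had -0.82 and 0.68 in the authors' deposited table, and neither passed (adjusted p-values of 0.47 and 1). At 4 h the ketone list had 1 and 0 genes with an unadjusted p under 0.05 by the authors' edgeR test, after the high-fat and low-fat meals.

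Among 21 measured genes for receptors and cofactors that regulate oxidation genes, 1 was higher in the 1 h high-fat comparison, 3 were higher in the 1 h low-fat comparison and 1 was lower in the 4 h high-fat comparison. Calls over all genes were likewise more frequent at 1 h, by the shares given above. After the high-fat meal 5 of the 21 had an unadjusted p under 0.05 at 1 h and 4 at 4 h, and after the low-fat meal 6 had one at 1 h. esrra, for an orphan nuclear receptor of mitochondrial genes, rose by 1.97 and 1.67 at 1 h after the high-fat and low-fat meals in the authors' deposited table (adjusted p-values of 5.6e-05 and 0.0010), and had 0.19 and -0.09 at 4 h. foxo1b (1.34, adjusted p = 0.026) and hnf4a (1.21, adjusted p = 0.034) were the others in the 1 h low-fat comparison in the authors' deposited table. The single call in the 4 h high-fat comparison was lpin1, a phosphatidate phosphatase that also acts as a coactivator in mammals, which fell by 1.56 (adjusted p = 0.0041 in the authors' deposited table). With the low-fat meal 0 of 21 were called at 4 h, and 0 had an unadjusted p under 0.05 by the authors' edgeR test. The PPAR-alpha genes pparaa and pparab, named as the receptors of the pathway, had 0.08 and -0.77 in the 4 h high-fat comparison in the authors' deposited table and did not pass (adjusted p-values of 1 and 0.61).

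A list of 13 measured genes that respond to fatty acids had 5 higher and 0 lower in the 4 h high-fat comparison, with a median of 0.33. It joined mammalian PPAR-alpha targets with klf11b and creb3l3a, which were added because earlier results of these data were known, so its counts carry no independent support. The authors' deposited table gave 4.33 for plin2, a lipid droplet coat, 3.0 for the transcription factor gene klf11b, 1.71 for angptl4, a lipoprotein lipase inhibitor, 1.51 for creb3l3a and 1.34 for fabp1b.1, a fatty acid binding protein gene. The 3 higher genes of the 1 h high-fat comparison in the authors' deposited table were plin2 (5.54), hmgcs1 (2.22), of cholesterol synthesis, and creb3l3a (1.19). By contrast 3 genes of this list fell in the 1 h low-fat comparison in the authors' deposited table, klf11b by 1.38, plin2 by 1.34 and cyp4v7 by 1.24. The 4 h low-fat comparison had 0 calls in this list, with 1 at an unadjusted p under 0.05 by the authors' edgeR test.

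**Figure D4:**
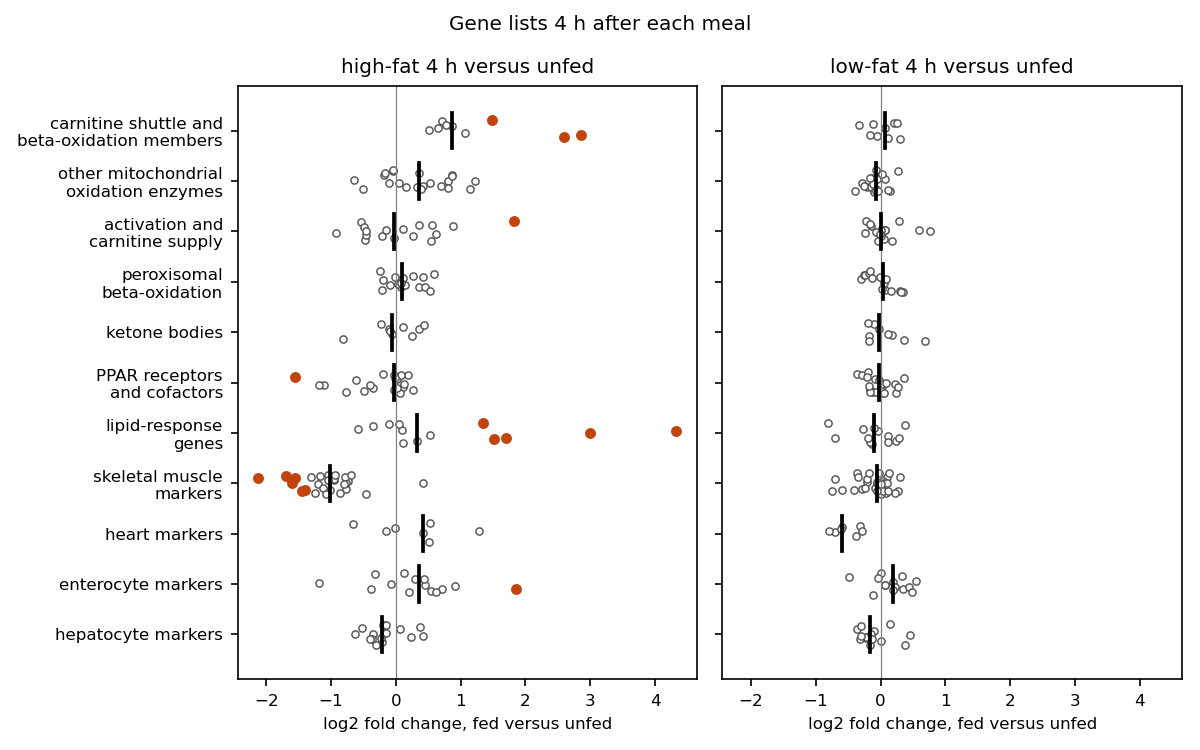
Log2 fold change of single genes (points) in 11 gene lists in the high-fat (left) and low-fat (right) comparisons at 4 h, each against unfed larvae of the same cohort. Black bars are list medians and red points passed an adjusted p under 0.05. After the high-fat meal the median of the 9 genes was 0.86 and that of the skeletal muscle markers -1.02, and after the low-fat meal they were 0.06 and -0.05.

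Markers of muscle were set beside cpt1b, since its mammalian counterpart is a muscle gene and skeletal muscle is not one of the dissected organs. Of 29 measured skeletal muscle markers 28 lay below 0 in the 4 h high-fat comparison, with a median of -1.02, and 6 were called lower and 0 higher. An unadjusted p under 0.05 was reached by 26 of the 29 there and by 13 in the 1 h high-fat comparison, against 7.77% and 14.5% of all genes. The lowest was myhz1.2, with -2.12 in the authors' deposited table. In the 4 h high-fat comparison 28 of the 29 markers had a sign opposite to that of cpt1b. In the other 3 comparisons the muscle medians were -0.67 in the 1 h high-fat comparison (3 lower), 0.28 at 1 h and -0.05 in the 4 h low-fat comparison, with 0 called in both low-fat comparisons and 2 genes at an unadjusted p under 0.05 in each by the authors' edgeR test. In the difference between meals at 4 h 28 of the 29 lay below 0, with a median of -1.01 and 0 called by the normal test. An unadjusted p under 0.05 was reached there by 15 of the 29, against 3.88% of all genes. Levels of these markers in single groups were not analysed here.

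Of 7 measured heart markers 0 were called in the 4 h high-fat comparison by the authors' edgeR test, with 1 at an unadjusted p under 0.05, values between -0.65 and 1.28 and a median of 0.43. In the difference between meals at 4 h 6 of the 7 lay above 0, with a median of 0.81. The median of this difference was 0.83 for the 9 genes and -0.03 for all genes. An unadjusted p under 0.05 was reached by 3 of the 7 in the normal test, against 3.88% of all genes. After adjustment 1 of the 7 passed, nppa, at 2.08 (adjusted p = 0.018). In the 1 h low-fat comparison 3 of the 7 were called higher, with a median of 1.07, while cpt1b had -0.19 in the authors' deposited table. The heart median was 0.05 in the 1 h high-fat comparison and in the 4 h low-fat comparison it was -0.60. Neither of these comparisons had a called heart marker, and 0 and 1 of the 7 had an unadjusted p under 0.05 by the authors' edgeR test. From 1 h to 4 h after the low-fat meal 5 of the 7 were called lower by the normal test, with a median of -1.86. Over all genes 1.33% were called lower in that difference, and cpt1b had -0.14 there without passing. The part of heart or muscle tissue in the cpt1b value was not tested.

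Other genes with much the same values over the 4 comparisons were found by the Euclidean distance of the 4 log2 fold changes, among 10878 other symbols whose log2 CPM reached 1. The 4 values share control samples in pairs, so the distance is a description. Nearest to cpt1b were fam114a1 (distance 0.90), zgc:174917 (1.15) and hadhaa (1.29). In the authors' deposited table fam114a1 had 2.21 and zgc:174917 had 2.19 in the 4 h high-fat comparison, and neither passed in the other 3 comparisons. Nearest to hadhaa were apoea (0.74), an apolipoprotein E gene, the fatty acid elongase gene elovl5 (0.76) and zgc:194131 (0.81). All 3 were called in the 1 h high-fat comparison, with 1.21, 1.55 and 1.35 in the authors' deposited table. There hadhaa had 0.96 and did not pass (adjusted p = 0.17). Whether these genes differ from hadhaa at 1 h was not tested.

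The smallest distances were those to hadhb. Its value in the 4 h high-fat comparison ranked 84th of 12828 genes, against 20th for cpt1b and 22nd for hadhaa. The distances were not scaled for how many genes lie near a value, and their order was not tested. pla2g12a, of the secreted phospholipase A2 family, lay at a distance of 0.12, with 0.82 and 1.43 in the 1 h and 4 h high-fat comparisons and -0.03 and 0.13 after the low-fat meal in the authors' deposited table. Next came tfg (0.35) and fabp6 (0.40), a bile acid binding protein gene. In the 4 h high-fat comparison pla2g12a (adjusted p = 0.014) and fabp6 (adjusted p = 0.0097) passed in the authors' deposited table, and tfg did not (adjusted p = 0.056).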

How the data were processed

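Poly(A) RNA of pooled digestive organs was read in runs of 50 bases with 6 libraries to a lane, per the labels' protocols. The tools named are TopHat2, a read aligner, and edgeR, a count test, with build Zv9, per the submitters' processing notes. The sources used here give no versions, counting tool or annotation. The authors deposited log2 fold changes, an average log2 CPM, p-values and adjusted p-values per transcript, for 56754 transcripts in 4 comparisons, with 0 columns of single samples. Their adjusted p-values were checked and match the Benjamini-Hochberg method applied to the whole table, and their marks match an adjusted p under 0.05. The tests planned for counts were therefore not run.

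Here each symbol was read from its row with the highest log2 CPM (18412 rows without a symbol were left out). Standard errors were the size of the fold change over the normal score of its p. Where the fold change was at most 0.5 in size or p was at least 0.6, a running median of 401 rows of like expression was used instead. For differences between meals both squared errors were added, and between times the mean of the squared errors was taken. Python 3.11.15, pandas 2.3.3, numpy 2.4.6, scipy 1.17.1 and matplotlib 3.10.9 were used.

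The 9 genes, the 12 other lists, the tests and the alternatives were chosen with earlier results of these data known. Named were the 9 genes, the called genes of the lists on oxidation and its regulators, and for each called member the 3 nearest genes by distance. hadhab and the others named from the list of further oxidation enzymes fall outside this rule. So do acaca, acacb, pparaa, pparab, rxraa, the markers named and the neighbours in the genome. Alternatives were the transcript per symbol, the adjustment, the threshold, the centring, the errors and the filter on expression. Labels say that samples came from separate crosses.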

Additional observations from a re-analysis of the deposited data

Results flagged for a closer look

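A carnitine palmitoyltransferase 1 gene and a gene of the trifunctional protein had responses that differed between conditions by a test of the difference itself, the approximate normal test with adjustment over all genes. For cpt1b the response at 4 h was higher after the high-fat than after the low-fat meal by 3.19 on the log2 scale, and after the high-fat meal it was higher at 4 h than at 1 h by 3.0. For hadhaa the difference between meals at 4 h was 2.35 and the change from 1 h to 4 h after high-fat food was 1.64. Per-sample values were not analysed, so how many samples show each direction is not given.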

How the results depend on the processing

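The 8 counts of called members (4 comparisons with unfed larvae and 4 differences) kept their value or stayed within 1.5 times of it under the 36 alternatives run, and the 324 alternative values of single members kept their side of the threshold. In these runs the call used the transcript with the smallest p, an adjustment over 1 row per symbol or over rows with a log2 CPM of at least 0, thresholds of 0.01 and 0.1, or fold changes centred on the median of all genes. The differences used smooth errors, no filter on expression, or a log2 CPM of at least 2. All of them rest on the authors' p-values, so none tests the spread of a single gene. No paired analysis was possible because the table has no columns of single samples. For the same reason leaving out each replicate and DESeq2 were not run. The longest transcript was not run, since the table gives the span of a locus.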

Other observations

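Markers of the dissected organs were measured beside the oxidation genes. In the 4 h high-fat comparison 1 of 14 enterocyte markers was called higher, cubn, a receptor of protein uptake, with 1.85 (adjusted p = 2.4e-04 in the authors' deposited table), and the list median was 0.36. In the same comparison 4 of the 14 lay at or below 0, the lowest being slc6a19a, a neutral amino acid transporter gene, with -1.18 (adjusted p = 0.082 in the authors' deposited table). The enterocyte medians were 0.27 in the 1 h high-fat comparison, with 2 called higher, and 0.38 and 0.19 in the 1 h and 4 h low-fat comparisons, with 2 and 0 called. By edgeR 5 and 4 of the 14 had an unadjusted p under 0.05 at 1 h and 4 h after high-fat food. After the low-fat meal 6 and 0 had one. Over all genes the shares were 14.5% and 7.77%, then 14.2% and 2.55%. Called higher over all genes were 1.96% and 0.741%, then 2.72% and 0.437%. In the difference between meals at 4 h cubn had 2.34 (adjusted p = 0.0023 in the normal test), the only call among the 14. Of 15 hepatocyte markers 0 were called in the 4 comparisons by the authors' edgeR test, with 1 at an unadjusted p under 0.05 at 1 h after each meal and 0 at 4 h, and medians between -0.21 and 0.11. For 11 markers of exocrine pancreas 0 were called and 0 had an unadjusted p under 0.05 in the authors' edgeR test, with medians between -0.16 and 0.01. Of 7 markers of visceral smooth muscle 0 were called in the 4 comparisons by the authors' edgeR test, with 1 at an unadjusted p under 0.05 in the 4 h high-fat comparison, and medians between -0.15 and 0.13.

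Regulators of the pathway also differed between times after the high-fat meal, in the normal test on the authors' values. From 1 h to 4 h esrra fell by 1.79 (adjusted p = 1.2e-04), pparab by 1.18 (adjusted p = 0.030), rxraa, a partner receptor of the PPARs, by 1.11 (adjusted p = 0.038) and lpin1 by 1.28 (adjusted p = 0.010). Acetyl-CoA carboxylases, coded by acaca and acacb, make malonyl-CoA, which inhibits carnitine palmitoyltransferase 1. Of these genes acaca fell by 1.1 (adjusted p = 0.039). The other carboxylase gene, acacb, was at a higher average level before any scaling for length. It had 0.55 and 0.63 in the 1 h and 4 h high-fat comparisons of the authors' deposited table, and neither passed (adjusted p-values of 0.70 and 0.80). From the same list slc25a48 rose by 1.87 from 1 h to 4 h after that meal (adjusted p = 3.0e-05). Of the 21 regulators 4 were lower and 0 higher in this difference, against 3.21% of all genes lower and 3.17% higher. After the low-fat meal esrra fell by 1.76 and foxo1b by 1.34 over the same interval (adjusted p-values of 4.7e-04 and 0.039).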
